A study of Mus musculus with 4 samples.

Results

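The urinary and odorant-binding lipocalins described here are 10 genes, Mup4, Mup5, Obp1a, Gm14743, Gm14744, 5430402E10Rik, Lcn3, Lcn4, Lcn11 and Lcn13, out of 23337 gene symbols with read counts. The genes were chosen by name from the Mup, Obp and Lcn families after their counts in mutant and control samples were known, so their difference between genotypes is given as a description, and no p-value is read from it. Their transcripts were counted by RNA-seq of Tomato-positive cells that were sorted, after injury and regeneration, from the olfactory epithelium of 4 mice of mixed background, 1 mouse per sample, 2 control (Lmnb1+/-) and 2 mutant (Lmnb1-/-). All of the mice carried K5Cre, a floxed Lmnb1 allele and the Cre-dependent R26 Ai9 reporter for Tomato, a red fluorescent protein, and all had been treated with 50 mg/kg methimazole, a drug that destroys the epithelium, and left to recover for 4 weeks. Control 1 and mutant 1 form experimental group 1, and control 2 and mutant 2 form experimental group 2. Per the labels the mice of an experimental group share sex, age, parents and treatment, and all of these differ between the groups, although the dose and the recovery time in the labels are the same and how the treatment differed is not stated. Preparation of the samples and sequencing were also shared within a group. The Keratin 5 promoter drives Cre in horizontal basal cells, a quiescent stem cell of the epithelium, so Tomato marks these cells and their progeny, and cells without recombination remained in the tissue around them.

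Lipocalins are small secreted proteins folded into a barrel that holds a hydrophobic ligand. Major urinary proteins bind volatile pheromones and are made in the liver and in glands of the head, and odorant-binding proteins are secreted into the mucus of the nose by its glands. Lcn3 and Lcn4 are also known as vomeronasal secretory proteins, and Lcn13 is named Obp2a in newer annotation. Lamin B1, encoded by Lmnb1, is a structural protein of the nuclear lamina.

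The 10 genes lie in 3 places of the mouse genome (mm10), each of them built of 6 or 7 exons and 652 to 925 exonic bases. On chromosome 4, Mup4 spans 59956804 to 59960710 and Mup5 spans 61831319 to 61835233, both on the minus strand. On chromosome X, Gm14744 spans 77864758 to 77870033 on the plus strand, and 5430402E10Rik (77919786 to 77925062), Obp1a (78085505 to 78091374) and Gm14743 (78240462 to 78245921) follow on the minus strand. On chromosome 2, Lcn13 spans 25700043 to 25703326, Lcn3 spans 25765569 to 25768099 and Lcn11 spans 25777017 to 25780279, all on the plus strand, and Lcn4 lies apart from them at 26667674 to 26671282 on the minus strand.

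Near-identical copies decide how much of each gene could be counted, since reads that align to several places are set aside by the counting program. Every 50-base window of the Lcn3, Lcn4 and Lcn11 transcripts occurred in no other gene of the GENCODE annotation. The same held for 92.8% of windows in Obp1a, 88.4% in Lcn13, 87.6% in Mup4 and 82.9% in Mup5, whose transcript was 92.8% identical to that of Mup4. In contrast, 22.5% of windows were particular to Gm14743, which was 99.3% identical to Obp1b over 757 aligned bases, 27.3% to Gm14744 and 27.9% to 5430402E10Rik, and the transcripts of the latter pair were 99% identical over 798 bases. Obp1b was not used here, because its symbol was not among the counted genes. The counts of Gm14743, Gm14744 and 5430402E10Rik therefore rest on a small part of their sequence.

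The promoters of 9 genes were found in RefSeq (GRCm38.p6; Lcn13 as Obp2a). The 100 bases before the start are shown for the 4 X-linked genes, which include near-identical copies, and for Lcn3 and Lcn11, which are neighbours with different patterns. Sequences run 5′ to 3′ on the strand of the gene, and capitals mark the motif TATAA, searched on that strand.
Obp1a: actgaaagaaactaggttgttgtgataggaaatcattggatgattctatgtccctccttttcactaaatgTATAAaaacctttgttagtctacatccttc
Gm14743: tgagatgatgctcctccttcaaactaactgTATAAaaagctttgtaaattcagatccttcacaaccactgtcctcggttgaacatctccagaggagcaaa
Gm14744: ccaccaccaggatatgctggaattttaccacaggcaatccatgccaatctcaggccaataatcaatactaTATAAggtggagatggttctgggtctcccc
5430402E10Rik: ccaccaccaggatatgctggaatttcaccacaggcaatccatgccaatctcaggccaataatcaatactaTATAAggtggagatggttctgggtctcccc
Lcn3: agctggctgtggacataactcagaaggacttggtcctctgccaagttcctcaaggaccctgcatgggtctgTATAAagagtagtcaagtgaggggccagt
Lcn11: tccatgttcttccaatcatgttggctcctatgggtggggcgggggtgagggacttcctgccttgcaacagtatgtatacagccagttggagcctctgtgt
TATAA was present in this window in 7 of the 9 promoters, and in 7.476% of 32851 RefSeq promoters. In Obp1a, Gm14744 and 5430402E10Rik it began 30 bases before the start, and in Lcn3 29 bases before it, whereas in Gm14743 it began 70 bases before the start. The letters were not in the windows of Lcn11 and Lcn4. Over the full 250 bases, Gm14744 and 5430402E10Rik were identical at 248 positions and differed by A145T and T176C, with the base of Gm14744 first and positions counted from 1 at the 5′ end. The promoter of Gm14743 was identical to that of Obp1b over 241 aligned bases. In Obp1b TATAA began 61 bases before the start, so these positions depend on where the start is annotated. The half-site AGAACA of steroid hormone receptors was found on either strand in the 250 bases of 2 genes, Obp1a and Lcn11, and in 16.08% of all promoters.

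Reads assigned to genes numbered 14833396 to 23704638 per sample, so 3 counts, taken as the floor of detection, correspond to 0.127 to 0.202 CPM. CPM are counts divided by the gene count total of the library and multiplied by the same constant in every sample. The TMM factors, which adjust library sizes in the edgeR fit, were not applied to them. The ratios of mutant to control within an experimental group were likewise made without these factors. Mutant 1 stood apart, with 39.41% of uniquely aligned reads outside genes compared with 22.08% to 24.88% in the others, and 1603 genes at 0 counts compared with 5173 to 6053. Alignments that were not unique also differed, at 67710764 and 62182762 in the samples of group 1 and 10308536 and 6757456 in those of group 2. Lmnb1 measured 477 and 395 counts in controls 1 and 2 and 326 and 149 counts in mutants 1 and 2 (log2 fold change -0.72, SE 0.31, edgeR adjusted p = 0.195). The deleted exon is part of a longer transcript, so the count over the whole gene is a weak check of the genotype. Krt5, a marker of horizontal basal cells, was present at 617 to 1469 CPM and Omp, a marker of mature olfactory neurons, at 907 to 9434 CPM.

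All 10 lipocalins were higher in the mutant than in the control of the same experimental group. Together they took 1443 and 85.6 CPM in controls 1 and 2 and 6694 and 2313 CPM in mutants 1 and 2. As a share of the library this was 0.669% in mutant 1 (95% Wilson interval 0.666 to 0.673) and 0.00856% in control 2 (0.00818 to 0.00896), the highest and the lowest of the 4 samples. Counting intervals cover counting error only. The summed level was 4.64-fold higher in mutant 1 than in control 1 and 27.01-fold higher in mutant 2 than in control 2, with a mean log2 ratio of 3.48 ± 1.80 (SD, n = 2 experimental groups). In sorted cells measured in bulk, more cells that make these proteins and more RNA per cell cannot be told apart.

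**Figure D1:**
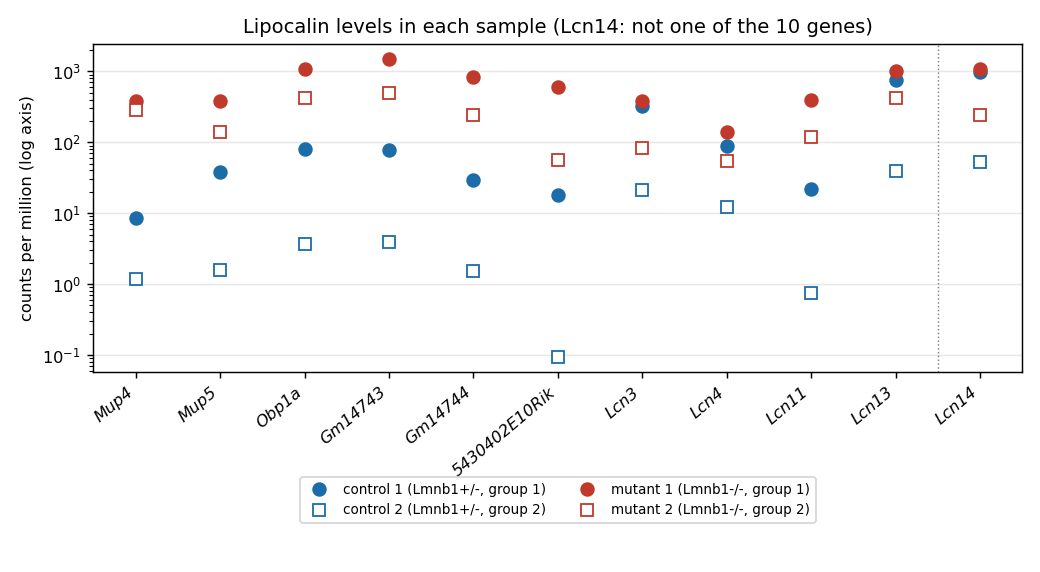
Level of each lipocalin in each of the 4 samples, in CPM on a log axis, with Lcn14, which is not among the 10 genes, on the right for comparison. For 7 genes both mutant samples (red) lie above both controls (blue), whereas for Lcn3, Lcn4 and Lcn13 control 1 lies above mutant 2.

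The major urinary protein genes were low in the controls and abundant in the mutants. Mup4 stood at 8.65 CPM in control 1 and 1.17 CPM in control 2, and at 385 and 285 CPM in the corresponding mutants. It had the largest fitted log2 fold change of the 10 genes, 6.53 (SE 0.40). The SE comes from the fit and does not cover the gap between the log2 ratios of group 1 (5.46) and group 2 (7.81). In Mup4 the mutants differed from each other by 1.35-fold, the smallest such difference among the 10. Mup5 had 38.6 CPM in control 1 and 1.59 in control 2, against 378 in mutant 1 and 138 in mutant 2 (log2 fold change 4.72, SE 0.48). The proportion between these genes was not constant, since Mup5 had 4.46 times the counts of Mup4 in control 1, 1.36 times in control 2, 0.981 times in mutant 1 and 0.483 times in mutant 2. The other genes of the family were at or near 0. Another 18 Mup symbols together measured 13 and 0 counts in controls 1 and 2 and 41 and 5 counts in mutants 1 and 2, and 11 of them had no count in any sample. Reads that align to more than 1 of these copies are set aside in counting, and their number was not tested.

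The X-linked odorant-binding protein genes together held 60.0% and 52.4% of the counts of the 10 genes in mutants 1 and 2. Gm14743, a copy of the Obp1 type, stood at 77.0 CPM in control 1 and 3.98 CPM in control 2, and at 1499 and 488 CPM in the corresponding mutants (log2 fold change 5.52, SE 0.47). Obp1a, which encodes odorant-binding protein 1a, had 79.7 CPM in control 1 and 3.65 in control 2, against 1076 in mutant 1 and 424 in mutant 2 (log2 fold change 5.22, SE 0.51). The latter pair stayed close to each other in every sample, with 0.718 to 1.03 counts of Obp1a per count of Gm14743. Gm14744 measured 29.7 and 1.54 CPM in controls 1 and 2 and 833 and 243 CPM in mutants 1 and 2 (log2 fold change 5.91, SE 0.43). It held 0.385 and 0.388 counts per count of Gm14743 in the controls and 0.556 and 0.499 in the mutants. The near-identical 5430402E10Rik had 17.8 CPM in control 1, 609 in mutant 1 and 57.1 in mutant 2, and in control 2 it had 2 counts, below the floor. Its counts relative to Gm14744 were 0.602 in control 1 and 0.730 in mutant 1, but 0.0606 in control 2 and 0.235 in mutant 2, so that the share of this copy was lower in both samples of experimental group 2. Reads shared by these copies were set aside, and whether the assignment of the rest between them differed among samples was not tested.

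The chromosome 2 genes fell into different patterns. Lcn11 stood at 21.8 CPM in control 1 and 0.748 CPM in control 2, and at 390 and 117 CPM in the corresponding mutants (log2 fold change 5.49, SE 0.47), a course like that of the X-linked genes. Its counts were 0.283, 0.188, 0.260 and 0.239 times those of Gm14743 in control 1, control 2, mutant 1 and mutant 2. Lcn3, the gene next to it, had 327 CPM in control 1 and 20.9 in control 2, against 377 in mutant 1 and 83.9 in mutant 2. The fitted change, 1.04 on the log2 scale (SE 0.35), was the smallest of the 10 genes, and control 1 had more of it than mutant 2. Lcn13 measured 755 and 39.8 CPM in controls 1 and 2 and 1008 and 423 CPM in mutants 1 and 2 (log2 fold change 1.86, SE 0.51). Lcn4 stood at 87.3 CPM in control 1 and 12.2 CPM in control 2, and at 140 and 53.8 CPM in the corresponding mutants (log2 fold change 1.33, SE 0.28). For Lcn3, Lcn4 and Lcn13 the genotypes overlapped, and within experimental group 1 the mutant exceeded its control by 1.15-fold, 1.60-fold and 1.34-fold. The abundance of Lcn11 relative to Lcn3 was 0.0665 and 0.0358 in the controls and 1.03 and 1.39 in the mutants.

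The likelihood-ratio test of edgeR placed 9 of the 10 genes past the threshold as higher in the mutants, all except Lcn3, where 1.28% of 15438 tested genes were called higher and 4.3% lower. In 7 of the 10 genes both mutants exceeded both controls, which was the case for 15.2% of tested genes. The choice of the genes used this contrast, so nothing is read from these counts. The median log2 fold change of the 10 genes was 5.35, compared with -0.01 over all genes tested. The fits without mutant 1, the library with many reads outside genes, and without control 2 leave 1 sample of a genotype. They hold no group term. The fitted difference of Lcn3 then turned its direction, to -1.09 without mutant 1 and -0.54 without control 2. That of Lcn13 was -0.11 without control 2 and 0.05 without mutant 1. That of Lcn4 was 0.07 without mutant 1 and 0.12 without control 2. Within experimental groups 1 and 2 the log2 ratio of mutant to control was 0.21 and 2.00 for Lcn3. It was 0.42 and 3.41 for Lcn13, and 0.68 and 2.13 for Lcn4. All 10 genes passed the filter of more than 1 CPM in at least 2 samples, but Lcn11 and 5430402E10Rik were under 1 CPM in control 2 and 8 genes were above it in every sample.

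As a result of these differences, the make-up of the lipocalin counts was not the same in the genotypes. Lcn13 took the largest share in the controls, 52.3% of the counts of the 10 genes in control 1 and 46.4% in control 2, whereas in the mutants it took 15.1% and 18.3%. Gm14743 was the leading gene of the mutants, with 22.4% in mutant 1 and 21.1% in mutant 2 compared with 5.34% and 4.64% in the controls. The X-linked genes together made up 14.2% and 10.8% in the controls and 60.0% and 52.4% in the mutants. Conversely, Lcn3, Lcn4 and Lcn13 together made up 81.1% and 85.1% in the controls and 22.8% and 24.3% in the mutants. In these shares the samples of a genotype resembled each other, although the summed level differed between them by 16.9-fold in the controls and 2.89-fold in the mutants. Single genes could differ more. Mup4 took 5.76% in mutant 1 and 12.3% in mutant 2, 5430402E10Rik 9.09% and 2.47%, and Lcn4 took 6.05% in control 1 and 14.2% in control 2.

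**Figure D2:**
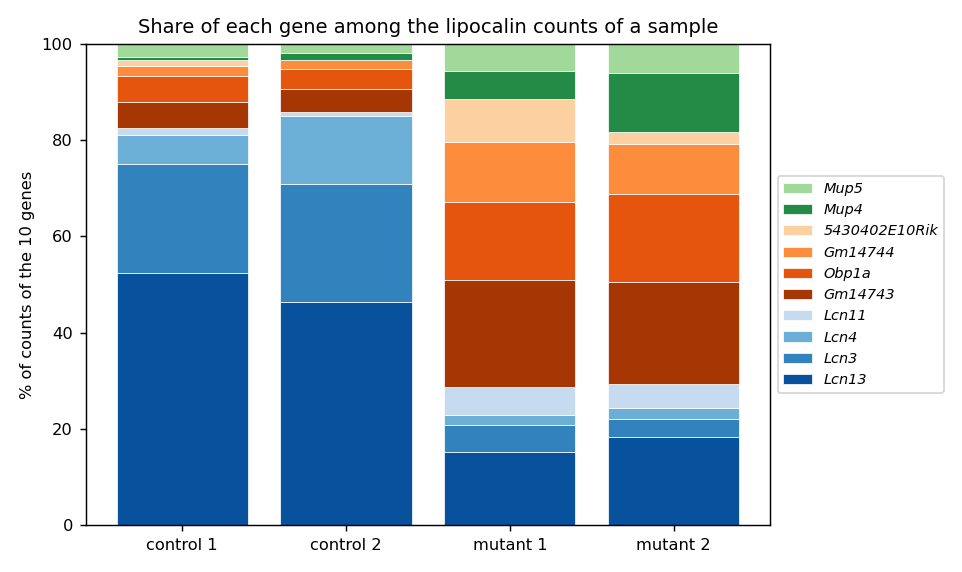
Share of each gene, in percent, among the counts of the 10 lipocalins in each sample, with chromosome 2 genes in blue, X-linked genes in orange and Mup genes in green. Lcn13, Lcn3 and Lcn4 make up 81.1% and 85.1% of the counts in the controls and 22.8% and 24.3% in the mutants.

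When counts were divided by the exonic length to compare genes, the order of the levels changed likewise. Genes were ordered by the geometric mean of the samples of a genotype. In the controls Lcn13 was highest, with 1015 CPM per kb in control 1 and 53.4 in control 2, followed by Lcn3 with 478 and 30.6 CPM per kb, and 5430402E10Rik was last with 22.4 and 0.117 CPM per kb. The last place rests on its 2 counts in control 2, since in control 1 Mup4 was lower, at 9.38 CPM per kb. In the mutants Gm14743 was highest, with 1975 CPM per kb in mutant 1 and 643 in mutant 2, followed by Obp1a with 1421 and 560 CPM per kb, although Lcn13 was above Obp1a in mutant 2, at 569 CPM per kb, and Lcn4 was last with 181 and 69.5 CPM per kb. The ranges of the samples overlapped in 9 of 9 neighbouring pairs in each genotype. These ranges include the difference between the experimental groups that the genes share, so their overlap cannot decide the order. Within each control Lcn13 was above Lcn3, and Lcn3 above Lcn4, which had 113 CPM per kb in control 1 and 15.8 in control 2. Gm14743 was above Obp1a in both mutants, whereas in control 1 Obp1a was the higher, at 105 against 102 CPM per kb. The scale matters for the copied genes. Per kb of windows particular to the gene, Gm14743 reached 9367 CPM per kb in mutant 1, while Obp1a reached 1637 and Lcn13 1642 CPM per kb.

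The difference between mutant and control was larger in experimental group 2 than in group 1 for all 10 genes. Mup4 was 44.6-fold higher in the mutant of group 1 (95% exact interval 38.8 to 51.4) and 244-fold higher in that of group 2 (165 to 377). Obp1a was 13.5-fold higher in group 1 (12.9 to 14.2) and 116-fold higher in group 2 (93.0 to 147). Lcn11 was 17.9-fold higher in group 1 (16.4 to 19.6) and 156-fold higher in group 2 (95.9 to 274). For 5430402E10Rik the ratio was 34.1 in group 1 (31.0 to 37.7) and 610.5 in group 2, where the 2 counts of control 2 left an interval from 168.5 to 5049. Lcn13 was 1.34-fold higher in group 1 (1.31 to 1.36) and 10.7-fold higher in group 2 (9.91 to 11.5). On the log2 scale, with a prior count of 2, the excess of the group 2 ratio ranged from 1.45 for Lcn4 to 3.14 for 5430402E10Rik. Each ratio rests on 1 mouse of each genotype, and the difference between the groups could not be tested with the spread of replicates.

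**Figure D3:**
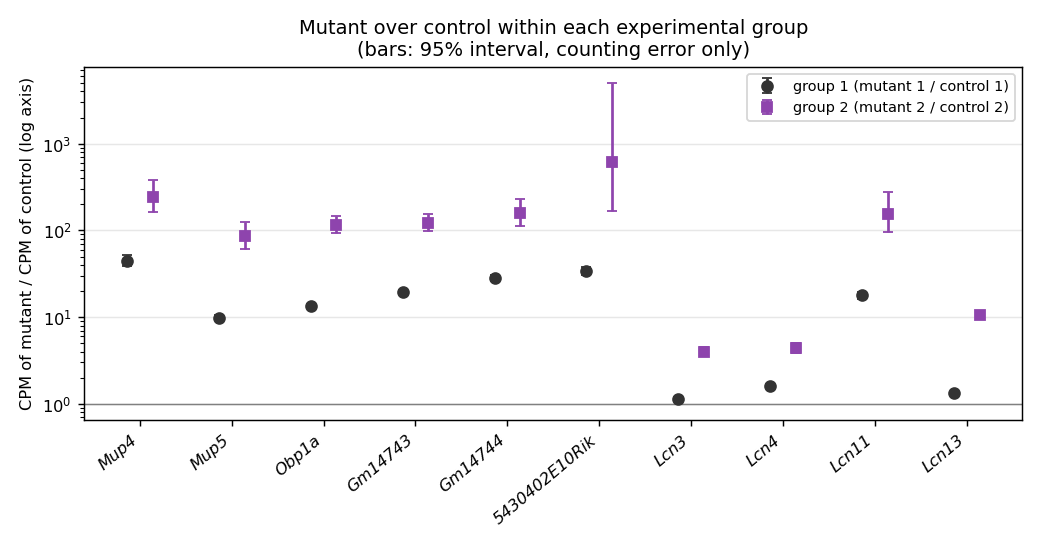
Ratio of CPM in the mutant to CPM in the control of the same experimental group, on a log axis, for each lipocalin, with 95% exact intervals that cover counting error only. The ratio of group 2 (squares) lies above that of group 1 (circles) for all 10 genes, and in group 1 Lcn3, Lcn4 and Lcn13 lie at 1.15, 1.60 and 1.34.

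The controls differed from each other more than the mutants did. Control 1 exceeded control 2 by 7.15-fold for Lcn4 to 191-fold for 5430402E10Rik, with 19.3-fold as the median of the 10 genes. The 191-fold rests on 2 counts in control 2, below the floor. Mutant 1 exceeded mutant 2 by 1.35-fold for Mup4 to 10.7-fold for 5430402E10Rik, with a median of 2.91-fold. The larger difference was between the controls for all 10 genes. Over all genes tested with counts, the median absolute log2 ratio was 0.55 between the controls and 0.49 between the mutants, compared with 4.27 and 1.54 for the lipocalins.

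The coefficient of the experimental group, which the choice of genes did not use, was tested in the same model. The model fits 1 group difference for both genotypes. Its SEs and p-values do not cover the gap between the controls and the mutants in that difference, with medians of 4.27 and 1.54. All 10 lipocalins were lower in group 2 than in group 1, compared with 14% of tested genes called lower and 17.7% called higher. The log2 fold change was -4.58 for 5430402E10Rik (SE 0.46, edgeR adjusted p = 6.44e-16), the largest of the 10. It was -3.03 for Lcn3 (SE 0.35, edgeR adjusted p = 5.35e-13) and -2.07 for Lcn4 (SE 0.28, edgeR adjusted p = 1.66e-10), genes with a small difference between genotypes. Lcn11 was lower by a similar amount, with -3.08 (SE 0.47, edgeR adjusted p = 1.90e-07). Mup4 had the smallest difference, -1.48 (SE 0.40, edgeR adjusted p = 0.00343). The remaining 5 genes, Mup5, Obp1a, Gm14743, Gm14744 and Lcn13, ranged from -2.91 to -2.72. The median over all genes tested was -0.03.

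For Lcn3, Lcn4 and Lcn13 both samples of group 1 exceeded both samples of group 2, as did 32.3% of tested genes, and for the other 7 lipocalins the groups overlapped because mutant 2 was above control 1. The count of lipocalins lower in group 2 was 6 with DESeq2, where 11.3% of tested genes were called lower. It was 2 without the replicate block, where 5.89% were, in which case genotype is not in the model. It also depended on single libraries. It was 2 without control 1, 2 without control 2, 1 without mutant 1 and 10 without mutant 2, in fits of 3 samples that hold no term for genotype, and without mutant 1 the direction turned for 7 genes, while without control 2 it turned for Mup4, to 0.60. In these fits 1.39%, 6.86%, 4.64% and 3.02% of tested genes were called lower, without control 1, control 2, mutant 1 and mutant 2 respectively. The treatment, parents, age and sex of the mice, and the preparation and sequencing of the samples, are tied to the groups and cannot be told apart. Xist, a transcript of the inactive X chromosome of females, had 3747 and 4579 counts in the samples of group 1 and 30 and 69 in those of group 2, and Ddx3y, a gene of the Y chromosome, had 0 counts in both samples of group 1 and 1370 and 727 in those of group 2. The part of this difference in sex, and that of the 62182762 to 67710764 alignments of group 1 that were not unique, was not tested.

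**Figure D4:**
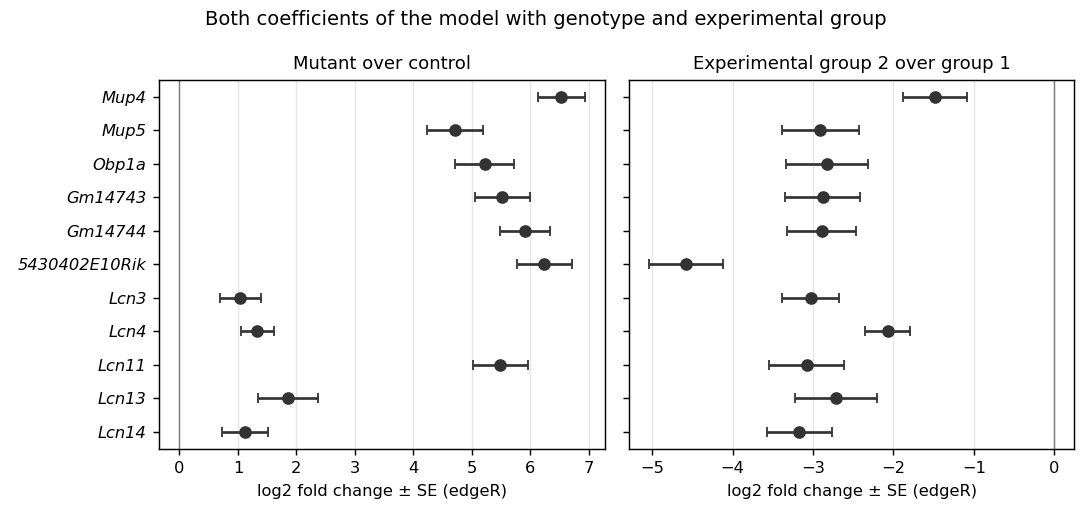
Fitted log2 fold changes with standard errors (bars) of mutant over control and of experimental group 2 over group 1, from the edgeR model that holds both terms. The values for mutant over control run from 1.04 (Lcn3) to 6.53 (Mup4), and those for group 2 over group 1 lie below 0 for all 10 lipocalins and for Lcn14.

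Further genes of the lipocalin family were read beside the 10 genes. Of 45 listed family members 36 had a symbol in the counts, 6 were tested, 0 were higher and 1 was lower in the mutants by the likelihood-ratio test, and 13 had no count in any sample. At an unadjusted p under 0.05, edgeR had 1 higher gene with both of its tests, and DESeq2, which gave no adjusted p for 2 of the 6, had none higher or lower, adjusted or not. Lcn14 is the copy of Lcn13 named Obp2b in newer annotation, 75.8% identical to it over 707 aligned bases, and lies between Lcn13 and Lcn3. It had 975 CPM in control 1 and 52.8 in control 2, against 1095 in mutant 1 and 240 in mutant 2, and did not pass the test between genotypes (log2 fold change 1.12, SE 0.40, edgeR adjusted p = 0.122). The proportion of Lcn3 to Lcn14 varied by 1.18-fold over the samples, with 0.336, 0.396, 0.345 and 0.349 counts of Lcn3 per count of Lcn14 in control 1, control 2, mutant 1 and mutant 2. That of Lcn13 varied by 2.34-fold, with 0.774 and 0.753 counts per count of Lcn14 in the controls but 0.920 in mutant 1 and 1.76 in mutant 2. The gene that was lower was Apod, which encodes apolipoprotein D, a carrier of lipids and small hydrophobic molecules. It measured 238.2 and 84.7 CPM in controls 1 and 2 and 60.6 and 58.0 CPM in mutants 1 and 2 (log2 fold change -1.32, SE 0.29, edgeR adjusted p = 0.000715). This call was lost with DESeq2. Within groups 1 and 2 the log2 ratio of mutant to control was -1.97 and -0.55 for Apod. Fits with 1 of the 4 libraries left out leave 1 sample of a genotype, so they cannot decide the call. Lcn2, an iron-siderophore binding protein of innate immunity, had 9.07, 41.4, 17.6 and 42.7 CPM in the same order (log2 fold change 0.43, SE 0.26, edgeR adjusted p = 0.455). Ptgds, a prostaglandin D synthase, had 19.9, 12.9, 17.2 and 15.0 CPM (log2 fold change -0.06, SE 0.31, edgeR adjusted p = 0.972).

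The genes that lie around the lipocalins were read next. Of 27 further symbols within 100 kb of any of the 10 genes, 12 were tested and none was called in either direction by edgeR, with 1 at an unadjusted p under 0.05. The quasi-likelihood test called 0 genes with 2 at that unadjusted p, and DESeq2 0 with 0. Bmyc, which starts 3.41 kb after Lcn13, stood at 7.05 CPM in control 1 and 3.23 CPM in control 2, and at 6.77 and 3.51 CPM in the corresponding mutants. Gm13539, which lies 1.98 kb from Lcn11, had 0 counts in all samples except mutant 1, with 11 counts. On chromosome X, Gm5938 between Obp1a and Gm14743 shared 51 windows with Obp1a and had 33, 0, 96 and 4 counts in control 1, control 2, mutant 1 and mutant 2 (log2 fold change 2.27, SE 1.21, edgeR adjusted p = 0.334). Pbsn, the probasin lipocalin gene 11.1 kb before Gm14744, had no count in any sample, and Prkx, a protein kinase gene on the same side, had 84.3 and 115 CPM in the controls and 83.4 and 77.9 CPM in the mutants.

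Lipid-binding proteins that act within the cell were examined as the other branch of the superfamily. Of 16 listed genes 5 were tested, of which Crabp2 was higher and Fabp7 lower. Crabp2, a carrier of retinoic acid, had 64.7 CPM in control 1 and 53.8 in control 2, against 98.4 in mutant 1 and 98.2 in mutant 2 (log2 fold change 0.68, SE 0.17, edgeR adjusted p = 0.00253). Fabp7, a fatty acid-binding protein of glia and ensheathing cells, had 45.8, 35.8, 22.1 and 19.2 CPM (log2 fold change -1.04, SE 0.22, edgeR adjusted p = 0.000239). Within groups 1 and 2 the log2 ratio of mutant to control was 0.61 and 0.87 for Crabp2 and -1.05 and -0.90 for Fabp7. Fits with 1 of the 4 libraries left out leave 1 sample of a genotype, so they cannot decide either call.

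The 5 genes whose profile over the 4 samples was nearest to the mean profile of the lipocalins were Car6, Klk1, Abpb, 2310057J18Rik and Gbp1. Likeness was the root mean square distance between log2 CPM (pseudocount 0.5) centred on the mean of each gene, and 4 samples that share 2 genotypes and 2 groups are few points. Car6, a carbonic anhydrase secreted in saliva, lay at a distance of 0.602 and measured 72 and 0 counts in controls 1 and 2 and 589 and 101 counts in mutants 1 and 2. Klk1, a kallikrein protease of salivary glands, lay at 0.686 and had 51, 0, 664 and 325 counts. Abpb, a secretoglobin subunit of salivary androgen-binding protein, lay at 0.897 and had 21, 0, 416 and 125 counts. In group 1 the mutant exceeded the control 8.76-fold for Car6, 13.9-fold for Klk1 and 21.2-fold for Abpb. In group 2, where control 2 had no count, the mutant was at least 48.5-fold, 156-fold and 60.1-fold higher, against a floor of 3 counts in that library. The other genes were 2310057J18Rik, at a distance of 0.923 with 109, 9, 619 and 575 counts, and Gbp1, an interferon-induced GTPase, at 1.30 with 36, 0, 115 and 133 counts. Within the lipocalins this distance ran from 0.217 for Mup5 and 0.478 for Obp1a to 1.62 for Lcn3. At this pseudocount Car6, Klk1 and Abpb were thus nearer to the mean profile than Mup4, 5430402E10Rik, Lcn3, Lcn4 and Lcn13 were. Without a count in control 2, their values in that sample were set by the pseudocount, and other pseudocounts were not tested.

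Products secreted by nasal glands were listed because the same cells can make odorant-binding proteins. Of 32 symbols in the counts 25 were tested, of which 8 were higher and 1 was lower in the mutants. DESeq2 called 3 higher and 3 lower, and gave no adjusted p for 8 of the 25. Fits with 1 library left out leave 1 sample of a genotype, so their calls are not compared. The median log2 ratio of the list was 0.61 in group 1 and 0.10 in group 2. The list was partly known from earlier results of these samples, so its direction is not independent evidence. The higher genes were Abpa, Abpb, Klk1, Car6, Bpifb9a, Bpifb9b, Muc5ac and Sftpd. Abpa, which encodes the partner subunit of Abpb, had 0 counts in both controls, 225 in mutant 1 and 59 in mutant 2, at least 80.3-fold higher in group 1 and 28.4-fold higher in group 2 against 3 counts in the control library. Bpifb9b, a gene of the family of secreted lipid-binding proteins that includes Bpifa1, stood at 71.2 CPM in control 1 and 3.13 CPM in control 2, and at 223 and 7.15 CPM in the corresponding mutants (log2 fold change 1.42, SE 0.19, edgeR adjusted p = 1.61e-10). Bpifb9a followed the same course, with 20.8, 1.82, 60.5 and 2.43 CPM (log2 fold change 1.04, SE 0.33, edgeR adjusted p = 0.0334). Muc5ac, a gel-forming mucin, had 23.2, 16.5, 45.6 and 58.8 CPM (log2 fold change 1.34, SE 0.24, edgeR adjusted p = 1.32e-05). Sftpd, a collectin of mucosal defence, had 62.2, 173, 111 and 266 CPM (log2 fold change 0.67, SE 0.19, edgeR adjusted p = 0.0133). Bpifb3 was lower, with 1343, 2016, 742 and 840 CPM (log2 fold change -1.12, SE 0.28, edgeR adjusted p = 0.00415).

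The gland products were also read as a sum. Their summed level was 17540 and 70070 CPM in the controls and 20130 and 71940 CPM in the mutants, most of it from Bpifa1, which had 12230 and 58810 CPM in the controls and 14060 and 63040 CPM in the mutants. Bpifa1 was higher in group 2 (log2 fold change 2.24, SE 0.38, edgeR adjusted p = 2.96e-07), the direction opposite to that of the lipocalins. Of this list 11 genes were higher and 7 lower in group 2, and Scgb1a1 had no count in any sample. Transcription factors, keratins and channels of gland acini and ducts were present at 2088 and 3605 CPM in the controls and 2664 and 3771 CPM in the mutants. None of 17 tested was called by the likelihood-ratio test, with 2 higher at an unadjusted p under 0.05, whereas the quasi-likelihood test called 0 with 3 and DESeq2 called 1 with 5. The part of gland cells in the difference of the lipocalins was not tested.

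Hormone receptors and signal transducers that are known to control urinary protein genes in the liver were not called between genotypes. Of 9 genes tested, 0 were called by edgeR with either of its tests, with 1 higher at an unadjusted p under 0.05, and 0 by DESeq2 with 0 at that p, where 5 of the 9 had no adjusted p. Ghr, the growth hormone receptor, had 19.6 CPM in control 1 and 24.7 in control 2, against 32.0 in mutant 1 and 34.6 in mutant 2 (log2 fold change 0.54, edgeR adjusted p = 0.174). A p above the threshold does not show that the levels were equal.

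Markers of other cells were read beside the lipocalins for the whole of each list. All 8 markers of mature neurons were lower in the mutants, with a summed level of 15940 and 6899 CPM in the controls and 9365 and 1989 CPM in the mutants, and 7 of them were lower in group 2. Their log2 fold changes ran from -1.51 for Cnga4 to -0.97 for Gng13. DESeq2 called 3, with all 8 lower at an unadjusted p under 0.05. The median log2 ratio of the list was -0.76 in group 1 and -1.85 in group 2. A fit without mutant 1 leaves 1 mutant sample, so its calls cannot decide whether the difference depends on that library. Of immature neuron markers 2 of 5 were lower, Dcx (-0.63) and Stmn4 (-1.01), and of ciliated cell markers 3 of 5 were lower, Foxj1 (-0.80), Tekt1 (-0.74) and Ccdc40 (-0.91), on the log2 scale. The progenitor marker Kit (0.98) and the basal cell marker Krt15 (1.11) were higher, each as 1 of 5 tested genes of its list. Of the basal cell list DESeq2 called 4 of 5 higher, and the quasi-likelihood test called 1, with 4 at an unadjusted p under 0.05. The basal cell list summed to 1864 and 1246 CPM in the controls and 2797 and 1674 CPM in the mutants. Sustentacular cell markers summed to 4797 and 12790 CPM in the controls and 5672 and 15570 CPM in the mutants, and all 5 were higher in group 2. None of the tested sustentacular, vomeronasal sensory, immune, hepatocyte or red blood cell markers was called between genotypes by the likelihood-ratio test of edgeR, with 1 sustentacular gene higher and 2 vomeronasal genes lower at an unadjusted p under 0.05, while DESeq2 called 1 sustentacular gene higher. Hepatocyte markers, read because the liver is the main source of urinary proteins, summed to 1.65 and 3.37 CPM in the controls and 7.41 and 5.39 CPM in the mutants. Alb, the albumin gene, had 0 counts in all samples except mutant 1, where it had 0.632 CPM. Vomeronasal sensory markers, read because Lcn3 and Lcn4 are known from the vomeronasal organ, summed to 206 to 220 CPM in all samples. Most of this sum came from the G protein genes Gnao1 (58.4 to 85.3 CPM) and Gnai2 (102.6 to 124.8 CPM). Trpc2 had 36.2 and 24.5 CPM in controls 1 and 2 and 31.0 and 17.6 CPM in mutants 1 and 2. The listed Vmn1r and Vmn2r receptor genes stood at 0 to 0.675 CPM. Immune cell markers summed to 553 and 773 CPM in the controls and 336 and 799 CPM in the mutants. The defining red blood cell genes Hba-a1, Hba-a2 and Hbb-b2 were at 0 in every sample, Hbb-b1 had 1 count in control 1 and 3 in mutant 2, and Alas2, an enzyme of heme synthesis in these cells, had 3.30 to 5.60 CPM. The part of cell make-up in the lipocalin levels was not tested.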

How the data were processed

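RNA of Tomato-positive cells sorted from 4 mice was depleted of ribosomal RNA and sequenced as single-end reads of 50 bases. Per the submitters' processing notes and the study's methods, the authors removed ribosomal reads with Bowtie2 2.0.6, aligned the remainder to mm10 with TopHat2 2.0.7 and counted reads per gene symbol with HTSeq, which sets aside reads with several alignments. The strand setting is not given in the sources used here. The deposited values are raw counts for 23337 symbols and 5 tally lines, which were left out. Gene counts of 14833396 to 23704638 per sample make 3 counts equal to 0.127 to 0.202 CPM.

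With edgeR 4.0.16 (R 4.3.3), genes over 1 CPM in 2 or more samples were fitted (TMM factors, negative binomial model holding genotype and group, likelihood-ratio test, Benjamini-Hochberg adjustment, threshold 0.05). The study's methods give the same filter, model and test, but with larger library sizes and another number of tested genes. The calls given here are therefore not those of the study. The experimental group serves as the replicate block, because the labels state that a group shares parents, age, sex and handling. SEs are Wald errors of the fit and do not measure the spread of the ratios between experimental groups. The test was also run on simulated counts, but these held no difference between experimental groups. That run therefore cannot show how the test behaves with the group differences of these data. Intervals on ratios are exact conditional binomial intervals. Of all symbols, 20918 matched GENCODE vM21 directly and 1914 by an older name. Promoters are from RefSeq. Alternatives were the quasi-likelihood test, DESeq2 1.42.0, no block, RLE factors, other filters, counts thinned to 14833396, and each library or group left out.

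The 10 genes and the gene lists were chosen with earlier results of these data known. Genes named are the 10 lipocalins, Lmnb1, list genes past the threshold, other lipocalins with a mean over 10 CPM and the 5 genes nearest in profile. Genes around the lipocalins and further genes given as values were named after their counts were seen.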

Additional observations from a re-analysis of the deposited data

Results flagged for a closer look

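In mutant 1, 39.41% of the reads with a unique alignment lay outside genes, a larger share than in either control, in a tally that no comparison uses. Without this library the log2 fold change between genotypes was 0.07 for Lcn4, 0.05 for Lcn13 and -1.09 for Lcn3, compared with 1.33, 1.86 and 1.04 with it. The log2 fold change of Mup5 fell from 4.72 to 2.74 and that of 5430402E10Rik from 6.24 to 2.63. The fit without mutant 1 has no group term and sets mutant 2 against both controls, whereas the fit with it compares within groups. Against control 2 alone, the log2 ratio of mutant 2 was 2.13 for Lcn4, 3.41 for Lcn13 and 2.00 for Lcn3. It was 6.35 for Mup5 and 8.23 for 5430402E10Rik. Ptgds was lower in mutant 1 than in control 1 by a log2 ratio of -0.21 and higher in mutant 2 than in control 2 by 0.21. The only hepatocyte marker tested, Ahsg, had a log2 ratio of 3.76 in group 1 and -0.39 in group 2. It had 0 counts in control 1 and 27 in mutant 1, so the ratio of group 1 depends on the prior count. The median log2 ratio of immune cell markers was -1.03 in group 1 and 0.86 in group 2, and that of the red blood cell marker tested was 0.61 and -0.17. These opposite directions were noted from 1 mutant and 1 control in each group, and the differences between groups were not tested.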

How the results depend on the processing

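Of 128 values of the lipocalins for mutant over control under the alternatives, 125 kept their direction, 27 of them without passing the threshold that they had passed, and of 108 values for group 2 over group 1, 100 kept their direction, 30 of them likewise. Without the replicate block, 2 lipocalins were higher in the mutants, in a fit that leaves the spread between groups in the error. In the fit of the group alone, which leaves the spread between genotypes in the error, 2 were lower in group 2. In that setting 0.0389% of all tested genes were called higher in the mutants and 5.89% lower in group 2. The calls among other lipocalins (0 lower), intracellular lipid-binding proteins (0 higher, 0 lower) and nasal gland products (2 higher, 0 lower) changed as well. DESeq2 called 6 lipocalins lower in group 2, 0 other lipocalins lower (2 of 6 had no adjusted p), and 3 nasal gland products higher and 3 lower (8 of 25 had none). The quasi-likelihood test called 2 nasal gland products lower, no filter on low counts gave 0 lower, and a CPM above 1 in all 4 samples gave 4 higher and 2 lower. The cause of these changes was not tested.

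With each library left out in turn, 1 to 9 lipocalins were higher in the mutants and 1 to 10 lower in group 2, 0 other lipocalins were lower, 0 intracellular lipid-binding proteins were higher or lower, and 0 to 5 nasal gland products were higher and 0 lower. These fits hold 3 samples and a single term. Under them the log2 fold change of Lcn3 between genotypes ranged from -1.09 (without mutant 1) to 3.41 and was -0.54 without control 2, and that of Lcn13 ranged from -0.11 (without control 2) to 4.12. The log2 fold change of group 2 over group 1 ranged from -7.33 to 4.01 for Mup4 (0.60 without control 2), from -6.97 to 0.81 for Mup5, from -7.24 to 1.38 for Obp1a, from -7.57 to 1.63 for Gm14743, from -8.06 to 2.00 for Gm14744, from -11.56 to 0.64 for 5430402E10Rik and from -8.03 to 1.39 for Lcn11, with the positive end without mutant 1. The mean log2 ratio of the summed lipocalins was 2.21 to 4.76 with a group left out. The 2 counts of 5430402E10Rik in control 2 limit its ratio in group 2.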
